A study of Mus musculus with 15 samples.

Results

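The mir-101a, mir-101b and mir-101c miRNAs were examined in left ventricular (LV) heart tissue of mice. All rows of the count table whose name starts with mir-101a-, mir-101b- or mir-101c- were taken, both arms included, which gave 6 of the 1836 rows. The 3p and the 5p arm are the mature miRNAs cut from the 3′ and the 5′ side of a precursor hairpin. The family was chosen by measured values: mir-101c-3p had passed a false discovery rate (FDR) of at most 0.05 in the comparison of AGAT-/-hArg with AGAT-/- mice, and also in that of AGAT-/-hArg with wt mice. Values of the mir-101 rows in these comparisons are therefore given as descriptions without a test. The comparison of AGAT-/- with wt mice did not choose the family. Its edgeR values from the fit of the whole table are given for these rows, but it shares its mice with the comparisons that did, and its p are not independent of the choice. Ratios between the rows were part of what the family was chosen for and are descriptions.

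AGAT (arginine:glycine amidinotransferase) is the enzyme behind homoarginine and the first step towards creatine, and its gene is deleted in AGAT-/- mice. MiRNA libraries were made from the LV of 5 wt mice, 5 AGAT-/- mice and 5 AGAT-/- mice supplemented with homoarginine by osmotic mini pump for 4 weeks (AGAT-/-hArg), each mouse giving its own library. All mice were littermates from heterozygous breeding on a C57BL/6J background. Treatment of the wt and AGAT-/- groups is labelled control, and whether these mice carried a pump, and the age of the mice, are not given in the sources used here. AGAT-/-hArg mice keep the deletion, so that they still lack the enzyme. The gene of AGAT gives no miRNA, so the genotype labels could not be checked in these counts. By their labels, libraries of wt and AGAT-/- mice were run on lane 8 and those of AGAT-/-hArg mice on lane 2. Effects of lane and of homoarginine therefore cannot be told apart.

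MiRNAs of the mir-101 family repress messenger RNAs that pair with the seed, a short stretch near the 5′ end of the mature miRNA. The family is known for repressing Ezh2, a histone methyltransferase, and in heart it has been studied in cardiac fibroblasts, where it represses Fos and limits the formation of scar tissue. The 3p arm is the one usually loaded for repression, and the 5p arm is the partner strand of the hairpin.

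The mature sequences are shown because their likeness decides what the counts can tell apart. RefSeq held a sequence for 5 of the 6 rows, and mir-101c-5p is the row without one. Sequences run 5′ to 3′, and capitals mark the seed (bases 2 to 8, counted from 1 at the 5′ end).
mir-101a-3p: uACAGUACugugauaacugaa
mir-101b-3p: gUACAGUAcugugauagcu
mir-101c-3p: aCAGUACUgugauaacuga
mir-101a-5p: uCAGUUAUcacagugcugaugc
mir-101b-5p: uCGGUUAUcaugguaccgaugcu

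The 3p sequences share a common core but start at different bases of it, so that the seeds by position are ACAGUAC for mir-101a-3p, UACAGUA for mir-101b-3p and CAGUACU for mir-101c-3p. Among the 1306 rows of the table that were matched to a RefSeq mature sequence, no other row had one of these seeds, and none outside the family shared a stretch of 12 bases. The whole of mir-101c-3p, 19 bases, lies inside mir-101a-3p, as the capitals show.
mir-101c-3p within mir-101a-3p: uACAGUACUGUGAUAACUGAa

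Aligned without gaps, mir-101c-3p and mir-101b-3p overlapped by 17 bases, of which 16 matched. The difference is A15G, with positions counted from 1 at the 5′ end of mir-101c-3p. Likewise, mir-101a-3p differed from mir-101b-3p by A16G over 18 bases, counted from the 5′ end of mir-101a-3p. The 5p arms were less alike. Over 22 bases, mir-101a-5p and mir-101b-5p matched at 17 and differed by A3G, C11U, A12G, G15A and U17C, counted from the 5′ end of mir-101a-5p. A read of the 19 bases of mir-101c-3p therefore cannot be assigned to mir-101c rather than to mir-101a by its sequence. How the authors counted reads that match several miRNAs is not given in the sources used here, and the origin of the reads on the mir-101c-3p row is uncertain for this reason.

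The precursors lie on different chromosomes (GRCm38, GENCODE M21 annotation). Mir101a is at chr4:101346945-101347027 on the minus strand, inside an exon of the long non-coding RNA gene E130102H24Rik on the same strand. Mir101b is at chr19:29135279-29135375 on the plus strand, inside an intron of the protein-coding gene Rcl1 on the same strand. Mir101c is at chr9:3038669-3038743 on the minus strand and overlaps no other annotated gene; the nearest, Gm10715, is 353 bases away. The hairpins of mir-101a (83 bases) and mir-101b (97 bases) are shown with both mature arms in capitals, since they place the rows with reads on opposite sides of the loop.
mir-101a hairpin: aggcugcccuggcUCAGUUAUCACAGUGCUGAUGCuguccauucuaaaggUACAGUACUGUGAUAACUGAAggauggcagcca
mir-101b hairpin: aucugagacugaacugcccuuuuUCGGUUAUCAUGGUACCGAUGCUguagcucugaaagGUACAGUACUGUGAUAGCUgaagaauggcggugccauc

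Libraries held between 365634 and 570492 reads, with medians of 442725 in wt, 454326 in AGAT-/- and 464886 in AGAT-/-hArg mice. Levels are given in CPM (the usual scale of counts relative to library size; values per mouse are further scaled by the TMM method, which balances the composition of libraries). Intervals cover counting error only. In all 15 libraries together, mir-101b-3p held 29999 reads and ranked 12th among all rows, mir-101c-3p held 9825 and mir-101a-5p 1375. The row mir-101b-5p held 12 reads, with between 0 and 3 per library. The rows mir-101a-3p and mir-101c-5p were at 0 in all 15 libraries. An empty row is not taken as a limit on its level, since miRNAs that the authors detected in this sequencing are among the empty rows of the deposited table, and the table may therefore lack reads that were counted. Whether this holds for the empty mir-101 rows is not known. Of the 6 rows, 4 thus had reads, and 3 passed the minimum for a fit in each comparison, which was a sum above 10 reads in its 10 libraries.

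The arm with reads in the table differed between the precursors. For mir-101b, the 3p row held 2500 times the reads of the 5p row, with an exact Poisson interval of 1431 to 4838 at 95%. For mir-101c, all reads were on the 3p row. For mir-101a the order was the opposite, and all reads were on the 5p row. The row mir-101a-3p holds the sequence within which mir-101c-3p lies, and it had no read where mir-101c-3p had 9825. A row at 0 opposite an abundant arm was frequent in the table: of the precursors with more than 1000 reads on an arm, 44.6% (45 precursors) were listed at 0 on the other arm. What part counting rules had in these zeros was not tested.

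The tissue label was checked against miRNAs of heart muscle. Of 14 rows of cardiomyocyte miRNAs (mir-1a, mir-133a, mir-208a, mir-208b and mir-499), 6 were at 0 in all libraries. These were the 3p rows of mir-1a, mir-133a, mir-208a and mir-208b, which are the arms that define cardiomyocytes. Reads were held by their opposite arms and by both arms of mir-499, a cardiomyocyte miRNA encoded in a myosin gene, whose 5p arm held the most of the list.

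In the order of their levels, mir-101b-3p was the highest row of the family in every mouse, followed by mir-101c-3p and mir-101a-5p. Per wt mouse, 1 to 5, mir-101b-3p was at 4141, 4788, 4259, 5210 and 4115 CPM. Per AGAT-/- mouse, 6 to 10, it was at 4686, 3064, 4257, 4499 and 4983 CPM. Per AGAT-/-hArg mouse, 11 to 15, it was at 4103, 4426, 4653.5, 5286 and 4034 CPM. The groups overlapped throughout, and the lowest value of all 15 belonged to AGAT-/- mouse 7, below the other 4 mice of its group. Group means were 4502 ± 480 in wt, 4298 ± 739 in AGAT-/- and 4501 ± 506 CPM in AGAT-/-hArg mice (SD, n = 5 each), so that the order of the groups lay within their spread.

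For mir-101c-3p, the row that chose the family, wt mice 1 to 5 held 1493, 1495, 1522, 1847 and 1504 CPM. In AGAT-/- mice 6 to 10 it was at 1837, 1444, 1653, 1498 and 1923 CPM. In AGAT-/-hArg mice 11 to 15 it was at 1051, 1105, 1208, 1313 and 973 CPM. All 5 AGAT-/-hArg mice were below all 10 others, while wt and AGAT-/- mice overlapped, 4 wt mice lying close together and mouse 4 standing above them. Means were 1572 ± 154, 1671 ± 208 and 1130 ± 133 CPM in the same order of groups (SD, n = 5 each). The reads behind these values were between 488 and 832 per library, and counting alone gives a coefficient of variation of 3.84%, 3.65% and 4.31% for the 3 groups, against 9.81%, 12.4% and 11.8% observed between mice. On total counts, without TMM, the observed values were 5.20%, 9.57% and 11.1%, so that part of the spread in wt mice came with the scaling.

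The partner strand mir-101a-5p was at 158, 213, 201, 213 and 214 CPM in wt mice 1 to 5. In AGAT-/- mice 6 to 10, mir-101a-5p was at 181, 158, 178, 156 and 199 CPM. In AGAT-/-hArg mice 11 to 15, mir-101a-5p was at 218, 197, 247, 241 and 257 CPM. The 4 highest values belonged to AGAT-/-hArg mice, mouse 12 of that group lay among the others, and wt and AGAT-/- mice overlapped as well. Means were 200 ± 24.2, 174 ± 17.8 and 232 ± 24.2 CPM (SD, n = 5 each). With between 65 and 129 reads per library, counting alone gives a coefficient of variation of 10.8%, 11.3% and 9.51%, close to the observed 12.1%, 10.2% and 10.4%, so that the spread between mice in this row was about what counting gives. On total counts, without TMM, mouse 12 no longer lay among the others. The lowest AGAT-/-hArg value was then 210 CPM, against highest values of 209 in wt and 189 in AGAT-/- mice. The gap between 210 and 209 CPM is smaller than counting error, as 3 reads stand for 5.26 CPM in mouse 12. Rows of the whole table without overlap were not counted on this scale.

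**Figure D1:**
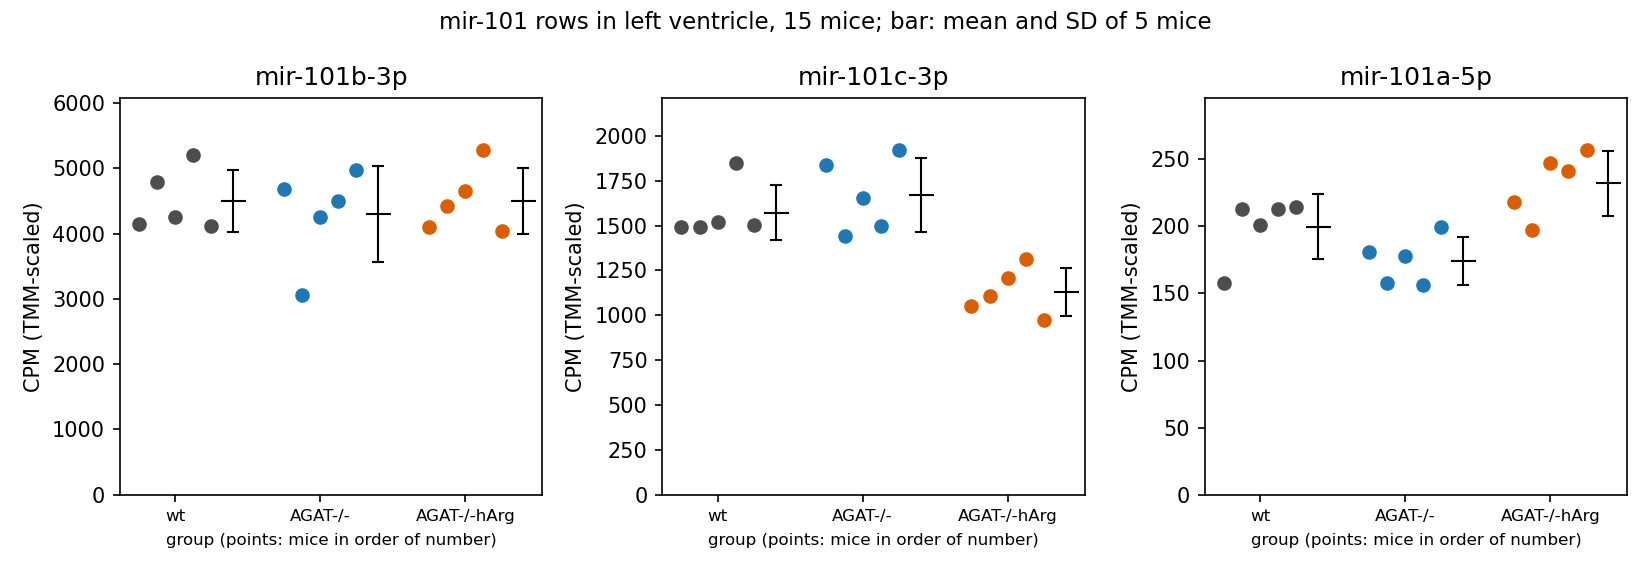
CPM of mir-101b-3p, mir-101c-3p and mir-101a-5p (vertical axes from 0) in each of 15 mice, by group, with points in the order of mouse number and bars for the mean and SD of 5 mice. For mir-101c-3p, the AGAT-/-hArg mice lie between 973 and 1313 CPM, below all wt and AGAT-/- mice, while the groups overlap for mir-101b-3p.

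Together, mir-101b-3p and mir-101c-3p summed to 6075 ± 612 CPM in wt, 5969 ± 911 in AGAT-/- and 5631 ± 636 CPM in AGAT-/-hArg mice (SD, n = 5 each). The share of mir-101c-3p in the reads of these 3p rows was 25.9 ± 1.21% in wt, 28.2 ± 2.51% in AGAT-/- and 20.1 ± 0.454% in AGAT-/-hArg mice. The sums of the groups overlapped, as most of the reads were on mir-101b-3p. In bulk tissue, fewer cells of a type and less RNA per cell cannot be told apart.

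The comparison of AGAT-/- with wt mice asks what the loss of the enzyme changes, and its libraries share a lane. Mir-101c-3p differed by a log2 fold change of 0.07 (SE 0.10, FDR 0.896 by edgeR's quasi-likelihood test with Benjamini-Hochberg adjustment), and 3 of the 5 AGAT-/- mice were above the wt mean. Mir-101b-3p differed by -0.08 (SE 0.11, edgeR FDR 0.893), and by 0.0016 without AGAT-/- mouse 7. Mir-101a-5p differed by -0.21 (SE 0.13, edgeR FDR 0.601). With each mouse left out in turn, this row lay between -0.29, without wt mouse 1 (unadjusted edgeR p 0.0319, FDR 0.335), and -0.14, without wt mouse 5. With all mice, none of the 3 rows passed the threshold or reached an unadjusted p below 0.05 with edgeR, DESeq2 or limma-voom, and none had groups without overlap. Over the whole table, 12 of 562 rows were called by edgeR (2.14%), 9 higher and 3 lower in AGAT-/- mice, and the CPM of the groups did not overlap in 19 rows (3.38%). Missing the threshold does not show that the levels were equal.

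Between AGAT-/-hArg and AGAT-/- mice, in a comparison that chose the family, mir-101c-3p was lower by a log2 fold change of -0.55 (SE 0.09), or 1.47-fold. Mir-101a-5p lay 0.42 (SE 0.13) higher, or 1.34-fold. Mir-101b-3p differed by 0.08 (SE 0.10), less than its standard error, and by -0.01 without AGAT-/- mouse 7. Of the tested mir-101 rows, mir-101c-3p had groups that did not overlap on the TMM scale. On total counts those of mir-101a-5p did not overlap either, with 210 CPM or more in AGAT-/-hArg and at most 189 in AGAT-/- mice. How many rows of the whole table did so on total counts was not counted. The median log2 fold change of all rows moved from 0.02 with TMM to 0.08 on that scale. Over the table, the groups did not overlap with TMM in 14 of 580 rows (2.41%), and 4 rows were called (0.69%). Besides mir-101c-3p, these were mir-378b-3p, mir-3962-3p and mir-3969-5p, named after their values were seen. Just inside the threshold was mir-3962-3p with a fitted log2 fold change of -5.40 (SE 1.14, edgeR FDR 0.0261), and just outside it mir-378d-5p with -0.20 (edgeR FDR 0.0563). As mir-3962-3p held 25 reads in the 10 libraries together, the size of its fold change is not exact.

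Between AGAT-/-hArg and wt mice, mir-101c-3p was lower by a log2 fold change of -0.48 (SE 0.10), or 1.39-fold, again without overlap of the groups. Mir-101a-5p lay 0.21 (SE 0.13) higher. Mir-101b-3p was level at -0.00 (SE 0.09), and its sign turned with DESeq2, with DESeq2's size factors, with total counts, with either other filter, with all libraries in 1 fit and without the 3 most abundant rows. Over the table, 17 of 569 rows were called (2.99%), 9 higher and 8 lower in AGAT-/-hArg mice, and the groups did not overlap in 22 rows (3.87%). The split into higher and lower depended on single mice: it was 2 and 9 without wt mouse 5, 3 and 9 without AGAT-/-hArg mouse 14 and 3 and 7 without mouse 15. With total counts in place of TMM, the calls were 16 higher and 8 lower, and the median log2 fold change of all rows moved from 0.02 to 0.12. On that scale mir-101c-3p was at -0.36, mir-101a-5p at 0.33 and mir-101b-3p at 0.11. These values share the AGAT-/-hArg mice, and hence the lane, with the comparison before.

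**Figure D2:**
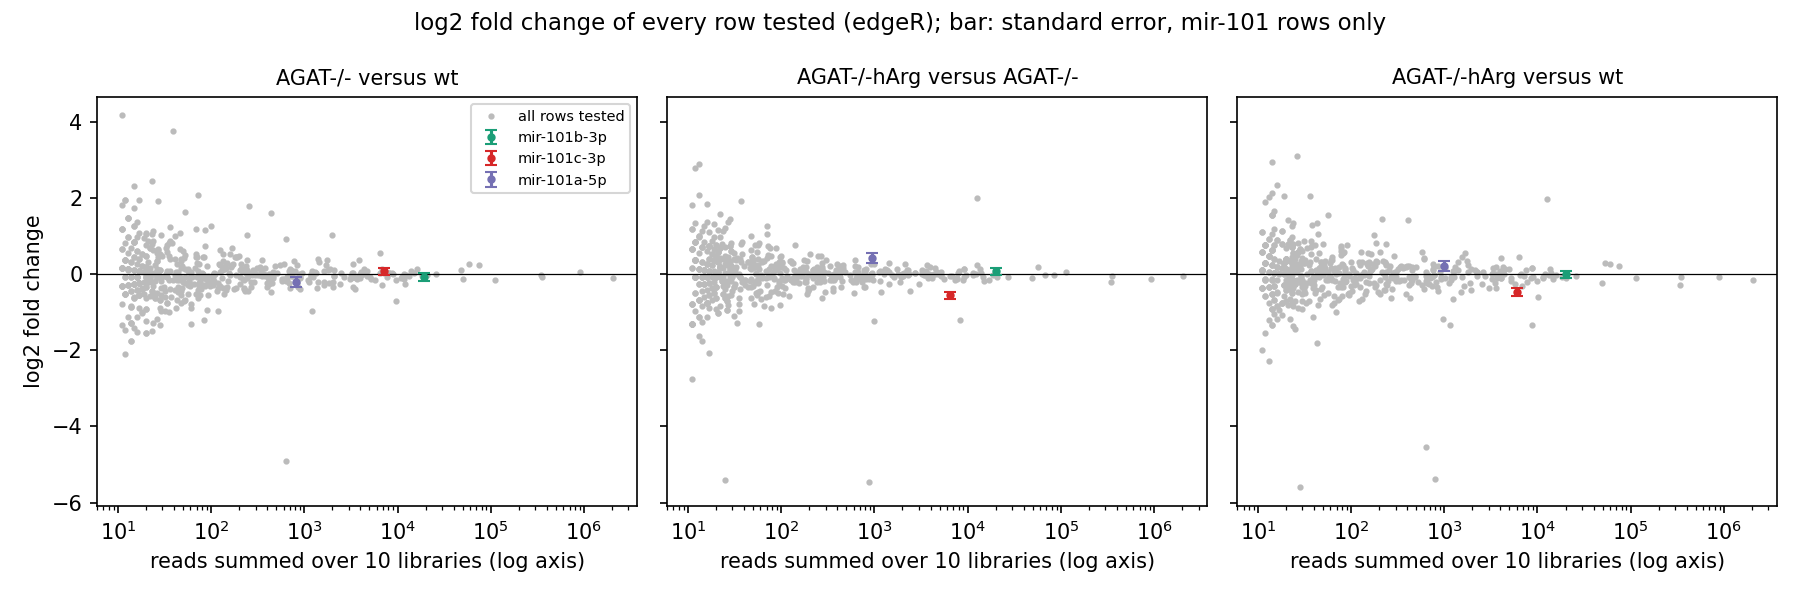
The log2 fold change (vertical axis) of every row tested against its reads summed over the 10 libraries (horizontal log axis) in the 3 comparisons, with mir-101b-3p, mir-101c-3p and mir-101a-5p in colour and bars for their standard errors. Mir-101c-3p lies at 0.07 in AGAT-/- versus wt mice and at -0.55 and -0.48 in the comparisons of AGAT-/-hArg mice, where most rows with similar numbers of reads lie close to 0.

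A ratio between rows of the same library needs no scaling between libraries. The ratio of mir-101c-3p to mir-101a-5p was 9.47, 7.01, 7.57, 8.68 and 7.01 in wt mice 1 to 5. This ratio was 10.2, 9.14, 9.31, 9.59 and 9.65 in AGAT-/- mice 6 to 10. In AGAT-/-hArg mice 11 to 15 the ratio was 4.81, 5.61, 4.89, 5.45 and 3.78. AGAT-/- mice lay close together at the upper end, with wt mouse 1 reaching among them, and all AGAT-/-hArg mice were below all others. The mean log2 ratio was 2.98 ± 0.19 in wt, 3.26 ± 0.06 in AGAT-/- and 2.28 ± 0.22 in AGAT-/-hArg mice (SD, n = 5 each).

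Between AGAT-/- and wt mice, the log2 ratio of mir-101c-3p to mir-101a-5p was higher by 0.28 (SE 0.09), or 1.21-fold, in AGAT-/- mice. Of the 5 AGAT-/- mice, 3 were above all wt mice. Counting error alone amounts to 0.11 on this difference, since mir-101a-5p had few reads. The SE between mice lies below that, so the SE understates the uncertainty. With each mouse left out in turn, the difference lay between 0.23 and 0.34. The ratio was lower in AGAT-/-hArg mice by a log2 difference of -0.98 against AGAT-/- mice (SE 0.10, 1.97-fold) and of -0.70 against wt mice (SE 0.13, 1.62-fold).

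The ratio of mir-101c-3p to mir-101b-3p, both 3p arms, was 0.361, 0.312, 0.357, 0.355 and 0.365 in wt mice 1 to 5. In AGAT-/- mice 6 to 10 it was 0.392, 0.471, 0.388, 0.333 and 0.386. In AGAT-/-hArg mice 11 to 15 it was 0.256, 0.250, 0.259, 0.248 and 0.241. AGAT-/-hArg mice lay in a narrow band below all others, and AGAT-/- mice lay above all wt mice except for mouse 9. The log2 ratio was higher by 0.16 (SE 0.09) in AGAT-/- than in wt mice, and by 0.10 to 0.22 with each mouse left out in turn, the highest without AGAT-/- mouse 9. The log2 ratio differed by -0.64 (SE 0.08) between AGAT-/-hArg and AGAT-/- mice and by -0.48 (SE 0.05) between AGAT-/-hArg and wt mice.

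The ratio of mir-101b-3p to mir-101a-5p, which leaves out the row that chose the family, was between 19.2 and 26.3 in wt, between 19.4 and 28.8 in AGAT-/- and between 15.7 and 22.5 in AGAT-/-hArg mice. The groups overlapped. The mean log2 ratio was 4.50 ± 0.18, 4.61 ± 0.21 and 4.28 ± 0.21 in the same order (SD, n = 5 each). No ratio was formed with mir-101b-5p, which had at most 3 reads per library.

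**Figure D3:**
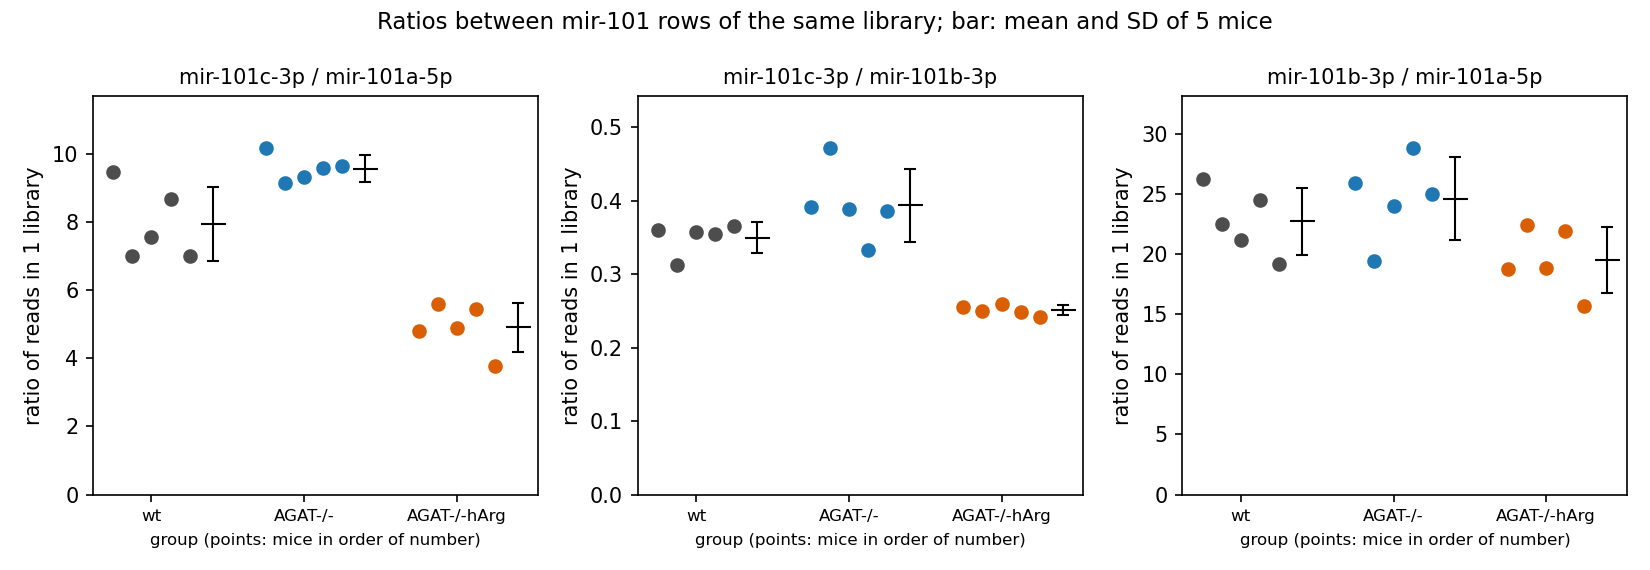
Ratios of reads between mir-101 rows of the same library (vertical axes from 0) in each of 15 mice, by group, with bars for the mean and SD of 5 mice. The AGAT-/-hArg mice lie below all others in the ratio of mir-101c-3p to mir-101a-5p (3.78 to 5.61) and to mir-101b-3p (0.241 to 0.259), and overlap with the other groups in the ratio of mir-101b-3p to mir-101a-5p.

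Over the 15 libraries, the rows most like mir-101c-3p were named among 176 other rows with more than 10 reads in every library, as a description of libraries that share groups and lanes. These were mir-378c-5p (Pearson r of log2 CPM 0.812, Spearman 0.725), mir-378d-5p (0.798, 0.729), mir-1194-3p (0.790, 0.800), mir-28a-3p (0.771, 0.796) and mir-181c-3p (0.722, 0.821). Within groups, taking deviations from the group means, their r with mir-101c-3p was 0.612, 0.496, 0.431, 0.493 and 0.584 in that order. The relatives of mir-101c-3p stood lower. Mir-101b-3p had r = 0.294 and was 42nd, but within groups it had r = 0.812 and was 2nd of the 176. Mir-101a-5p had r = -0.469 over the libraries and r = 0.431 within groups. Within a group the mice with more mir-101c-3p also had more mir-101b-3p, while across the groups these rows parted. As mir-101c-3p was chosen for its difference in AGAT-/-hArg mice, its r across the groups is not independent of that choice. The r depend on the scaling that all rows of a library share. With total counts in place of TMM, the 5 rows named had r = 0.208, 0.645, 0.699, 0.321 and 0.454 in the order above, and mir-378c-5p was then 24th. On that scale mir-101b-3p had r = -0.0277 and mir-101a-5p r = -0.699.

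Of 36 rows of miRNAs linked to cardiac fibrosis and remodelling (among them mir-21, mir-24, mir-26, mir-29, mir-30, mir-133 and mir-199), 19 were at 0 and 15 were tested in each comparison. In AGAT-/- versus wt mice, 0 were called by edgeR, DESeq2 or limma-voom, 3 had an unadjusted edgeR p below 0.05 (over all rows, 60 of 562), and the median log2 fold change of the list was -0.04, as was that of all rows tested. The empty rows of the list could not be tested, and miRNAs that the authors reported as regulated between wt and AGAT-/- mice are among them. In AGAT-/-hArg versus AGAT-/- mice the median was 0.01 against 0.02 over all rows, and in AGAT-/-hArg versus wt mice 0.07 against 0.02. Of the list, edgeR and limma-voom called 0 in either (unadjusted edgeR p below 0.05 in 2 and 3 rows, against 43 of 580 and 71 of 569 over all rows), and DESeq2 called 1 in the latter, against 22 of 569. Those with the most reads were mir-24-2-5p, mir-199b-5p and mir-21a-3p, whose log2 fold changes between AGAT-/- and wt mice were 0.24 (SE 0.08), -0.08 (SE 0.10) and -0.26 (SE 0.15). The row mir-144-3p, which shares bases 2 to 7 with mir-101a-3p, was also at 0 in all libraries. Its sequence is shown with the shared bases in capitals.
mir-101a-3p: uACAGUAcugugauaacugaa
mir-144-3p: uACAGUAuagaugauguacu

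The opposite arm mir-144-5p was at 3086 ± 483, 2995 ± 440 and 3018 ± 313 CPM in wt, AGAT-/- and AGAT-/-hArg mice (SD, n = 5 each). Markers of cell types were summed per library to set beside mir-101c-3p. Cardiomyocyte rows summed to 1795, 2106, 1975, 1987 and 2041 CPM in wt mice, to 1923, 2495, 2336, 2086 and 2111 in AGAT-/- mice and to 2332, 2334, 1998, 2375 and 2371 in AGAT-/-hArg mice. All groups overlapped, with the highest sum in AGAT-/- mouse 7 and the lowest in wt mouse 1. Of these, 1 row, mir-499-5p, was called higher in AGAT-/-hArg than in wt mice, by a log2 fold change of 0.43 (SE 0.10), and in AGAT-/- against wt mice it was higher by 0.36 (SE 0.10, edgeR FDR 0.0639). The other tested cardiomyocyte rows went both ways in these comparisons. The median of the list was -0.04 in AGAT-/- versus wt mice, as over all rows. In AGAT-/-hArg versus wt mice it was 0.14, against 0.02 over all rows. Smooth muscle rows (6, of which mir-143-3p and mir-145b-3p were at 0) summed to 10676 ± 1217, 11562 ± 1442 and 13187 ± 2608 CPM, most of it mir-145a-3p. The sums of AGAT-/-hArg mice reached higher but spread widely and overlapped with both other groups. Erythroid rows (10, of which 5 were at 0) summed to 7031 ± 577, 7224 ± 620 and 7076 ± 583 CPM, led by mir-486a-5p. Leukocyte rows (10, of which 4 were at 0) summed to 2937 ± 248, 2903 ± 192 and 3161 ± 296 CPM, and the groups overlapped for both cell types. Most of the leukocyte sum was mir-155-5p, while the next row, mir-150-3p, was lower in AGAT-/-hArg mice by a log2 fold change of -0.63 (SE 0.23) against AGAT-/- and of -0.64 (SE 0.27) against wt mice. In the same order, mir-155-5p lay at 0.15 (SE 0.08) and 0.12 (SE 0.09), and mir-223-5p at 0.33 (SE 0.37) and 0.01 (SE 0.40). The median of the leukocyte list was 0.06 and -0.04, against 0.02 over all rows in both. Endothelial rows (4) summed to 20.4 ± 7.21, 17.8 ± 8.83 and 17.5 ± 5.95 CPM, led by mir-126a-3p, and of 4 fibroblast rows mir-199b-5p alone had reads, at 1158 ± 69.7, 1106 ± 157 and 1088 ± 124 CPM. Between AGAT-/- and wt mice, edgeR called 0 rows of these cell type lists (unadjusted p below 0.05 in 2 cardiomyocyte rows, and in 60 of 562 over all rows). DESeq2 and limma-voom each called 1 cardiomyocyte row, against 14 and 15 of 562 over all rows. Between AGAT-/-hArg and AGAT-/- mice edgeR called 0 as well, with an unadjusted p below 0.05 in 1 erythroid and 1 leukocyte row (43 of 580 over all rows). Between AGAT-/-hArg and wt mice, where edgeR called mir-499-5p alone, the unadjusted p was also below 0.05 in 2 of 3 tested smooth muscle rows (median log2 fold change 0.41 against 0.02 over all rows), 1 erythroid and 1 leukocyte row (71 of 569 over all rows). The part of these cell types in the levels of mir-101c-3p was not tested.

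**Figure D4:**
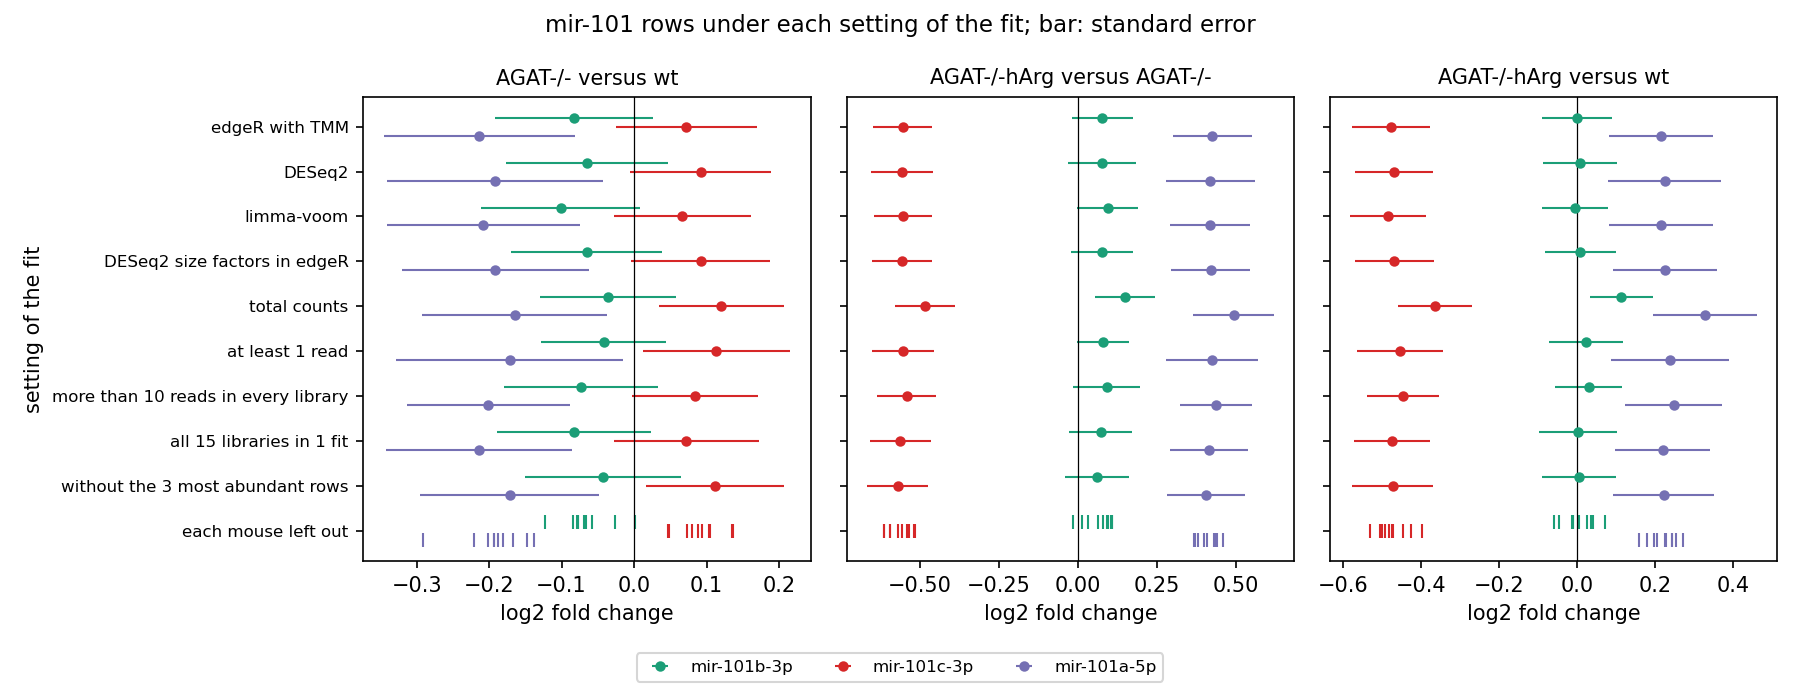
The log2 fold change (horizontal axes) of mir-101b-3p, mir-101c-3p and mir-101a-5p in the 3 comparisons under each setting of the fit (vertical axis), with bars for standard errors and, in the lowest line, ticks for the fits that leave out each mouse in turn. Mir-101c-3p lies between -0.57 and -0.48 in AGAT-/-hArg versus AGAT-/- mice and between -0.48 and -0.36 in AGAT-/-hArg versus wt mice under the 8 other settings, and on the upper side of 0 in AGAT-/- versus wt mice.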

How the data were processed

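The deposited values are raw read counts per mature miRNA, which the authors obtained by mapping to murine miRBase entries in the CLC Genomics Workbench; versions, mismatches and the handling of reads that match several miRNAs are not given in the sources used here. The submitters' processing notes name GRCm38, and the authors' own tests used DESeq2. Columns were assigned to mice by their labels. Libraries of a group differed by more than sampling noise in all 30 pairs (chi-square divided by its degrees of freedom between 2.53 and 16.8), and each mouse counted as 1 replicate.

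Each pair of groups was fitted on the whole table with edgeR 4.0.16 (R 4.3.3), TMM, glmQLFit and glmQLFTest, for rows whose sum over the 10 libraries exceeded 10 reads, at an FDR of at most 0.05. CPM per mouse use TMM over all 15 libraries, and log2 CPM a prior count of 1. Log2 ratios were taken from the counts and compared by the difference in means; a planned exact permutation test of them was run, and its p is not given because the ratio and its mice entered the choice of the family. The fit was tested on simulated data with 2-fold changes. In AGAT-/- versus wt, AGAT-/-hArg versus AGAT-/- and AGAT-/-hArg versus wt it recovered 52.1%, 51.3% and 53.4% of the changed rows tested. Among changed rows with a mean above 10 reads it recovered 93.4%, 95.2% and 95.1%. Of its calls, 4.81%, 3.03% and 2.86% were false. Alternatives were DESeq2 1.42.0, limma-voom (limma 3.58.1), DESeq2's size factors, total counts, other filters, all 15 libraries in 1 fit, the 3 most abundant rows left out, each mouse left out, and for ratios 0.5 reads added or medians. Summaries used Python 3.11.15 and scipy 1.17.1. Sequences are from RefSeq (GRCm38), matched by miRNA name; loci are from GENCODE M21.

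Named rows are all mir-101 rows, rows with the same seed, the 5 rows most like mir-101c-3p, and, from the fibrosis list, the mir-144 list and the cell type lists, those called in AGAT-/- versus wt mice and the 3 with the most reads. The other rows called between AGAT-/-hArg and AGAT-/- mice and the row nearest outside that threshold were named after their values were seen. So were mir-130a-3p and mir-100-5p. The members and lists were chosen with earlier results of these data known.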

Additional observations from a re-analysis of the deposited data

Results flagged for a closer look

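Among 18 groups of 5 values (CPM of 3 mir-101 rows and 3 ratios in 3 groups), 3 held a mouse far from the other 4, and chance alone marks about 1 in 20 groups. All were wt mice. For mir-101c-3p, mouse 4 held 1847 CPM, where the other 4 wt mice lay between 1493 and 1522. For mir-101a-5p, mouse 1 held 158 CPM, where the others lay between 201 and 214. Both depend on the scaling: with total counts in place of TMM, tried after seeing the data, the gap to the nearest mouse was 0.576 and 0.589 of the group's range, below the 0.71 that flags a mouse. In the ratio of mir-101c-3p to mir-101b-3p, mouse 2 was at 0.312, where the others lay between 0.355 and 0.365.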

How the results depend on the processing

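Of 267 values recomputed for 17 results, 254 kept their direction and their side of the threshold or moved by less than the spread. Some of the other 13 were log2 ratios in AGAT-/- versus wt mice, which were sorted by the permutation p that is not given. The ratios of mir-101c-3p to mir-101a-5p and to mir-101b-3p were higher in AGAT-/- mice with any mouse left out. The count of called rows moved by more than 1.5 times with all rows of at least 1 read tested (8 against 4 in AGAT-/-hArg versus AGAT-/- mice, 28 against 17 in AGAT-/-hArg versus wt mice) and with more than 10 reads required in every library (2 against 4), settings that change how many rows are tested. With each mouse left out, the counts were 8 to 17 in AGAT-/- versus wt, 3 to 6 in AGAT-/-hArg versus AGAT-/- and 10 to 20 in AGAT-/-hArg versus wt mice, the latter 11 without wt mouse 5 and 10 without AGAT-/-hArg mouse 15. In AGAT-/- versus wt mice, mir-101c-3p lay between 0.07 and 0.12 over 8 other settings and from 0.05 to 0.14 when each mouse was left out. Mir-101b-3p then lay between -0.12 and 0.0016, turning from -0.08 without AGAT-/- mouse 7, as did its 0.08 in AGAT-/-hArg versus AGAT-/- mice (-0.01), and the cause was not tested. In AGAT-/-hArg mice with each mouse left out, mir-101c-3p lay between -0.61 and -0.51 against AGAT-/- and between -0.53 and -0.40 against wt mice. The log2 ratio of mir-101c-3p to mir-101a-5p in AGAT-/- versus wt mice lay from 0.23 to 0.34 when each mouse was left out and at 0.34 with medians. Of the 5 rows most like mir-101c-3p, 3 were shared with Spearman, 2 with total counts and 0 within groups. No paired analysis was possible, because the mice were littermates but the litter of each mouse is not given in the sources used here. Few reads limit mir-101a-5p, and shared sequence limits what the mir-101c-3p row stands for.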
